A study of Caenorhabditis elegans with 6 samples.

Results

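The cytosolic small ribosomal subunit of Caenorhabditis elegans carries a set of proteins encoded by the rps genes and ubl-1, each by a single gene. The 32 rows of the count table whose symbol starts with rps- or is ubl-1 were taken, of 20189 protein-coding genes. They cover rps-0 to rps-30 without a gap, plus ubl-1, and all 32 had enough reads to be tested. Ribosome profiling counts short mRNA fragments that ribosomes protect, so a count here is the number of footprint reads on a gene's coding sequence. The 6 libraries came from whole hermaphrodites of the fourth larval stage (L4) kept at 23 °C. All of them, treated or not, carried the P55Q change of rpl-36A on 1 chromosome and the balancer mIn1, a rearranged chromosome II, on the other. The changed gene encodes a protein of the large subunit in which substitutions of that proline are known to let ribosomes work in cycloheximide (CHX), a drug that blocks elongation. Eggs were placed on plates without the drug for 2 days (no CHX, 3 libraries) or with 500 µg/ml of it for 3 days (CHX, 3 libraries). Drug and days of culture therefore cannot be told apart.

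The small subunit binds mRNA and initiator tRNA, scans to the start codon and reads the codons. Its head, body and platform enclose the mRNA channel, with the decoding centre where head and body meet. Ribosomal protein genes are among the most heavily translated of a growing animal, since each new ribosome needs 1 copy of almost every protein, and copies made in excess are known, from yeast and human cells, to be degraded. In the common naming, a protein with the prefix u (uS13) has relatives in bacteria, archaea and eukaryotes, and one with the prefix e (eS19) does not occur in bacteria. No sequence of these genes is shown, because no coding or protein sequence was used here. For the same reason levels were not divided by coding length, and a difference in reads between 2 of these genes is not a difference in ribosome density.

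The libraries held 1601009 to 1901815 reads, and the 32 genes had between 304 and 3627 reads each in a library. Nothing in the labels says that replicates were separate cultures, so every p-value rests on differences among libraries that could be technical repeats. Tissue markers of whole worms had reads, with msd-1 (a sperm gene) the one marker at 0 of 56 listed. Marker levels differed between groups. All 11 oocyte and eggshell markers rose, and their summed level was 596 to 783 CPM (counts per 1000000 reads, scaled with edgeR's TMM factors) without CHX and 4782 to 5425 with it. The summed level of 8 other germline markers was 2198 to 2214 CPM without CHX and 1369.6 to 1508 with it (6 fell and 1 rose). The 9 sperm markers summed to 254 to 300.0 and 154 to 186 CPM (4 of 6 tested fell), and the 7 body muscle markers to 12204 to 13369 and 9397 to 10505 CPM (4 fell). The 7 neuron markers summed to 294 to 355 and 377 to 421 CPM (1 rose). Intestine markers overlapped between the groups, with sums of 2809 to 3380 and 2312 to 2845 CPM (3 of 6 tested fell). So did hypodermis markers, with sums of 2118 to 2526 and 1384 to 2413 CPM (1 of 7 fell). Only 3 of the 7 hypodermis markers had a lower estimate with CHX, and their median log2 fold change (CHX over no CHX) was 0.52 over all 7. The part of these marker differences in the results below was not tested. In whole animals, fewer cells of a type, less mRNA and less translation per cell cannot be told apart from footprints alone. All levels are also relative to the other reads of a library.

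Small-subunit footprints were lower with CHX. The 32 genes together took 3.29%, 3.06% and 3.30% of all reads in the untreated libraries (in replicate order) against 2.61%, 2.74% and 2.86% in the treated ones. The groups did not overlap, and the mean share went from 3.22% ± 0.137 to 2.74% ± 0.123 (SD, n = 3 each), a ratio of 0.851. A log2 fold change below 0 was found for 47.7% of all genes tested and for each of the 32, whose means were all lower with CHX. Of these, 19 fell and none rose (quasi-likelihood test of edgeR, with p adjusted by Benjamini-Hochberg over 10632 genes and called under 0.05), where 20% of all genes tested fell and 22.2% rose. Upper-quartile factors, DESeq2 and limma-voom also called 0 rises. The median log2 fold change of CHX over no CHX was -0.28 among the 32, a fall of 17.6%, and 0.034 among all genes tested. Falls were also frequent among other genes with as many reads without CHX. Of the 726 other genes whose no CHX mean lay within the range of the 32, leaving out large-subunit genes, 378 fell (52.1%), with a median of -0.30. In this set 76.0% had a log2 fold change below 0. The set was picked by no CHX level alone. Genes high only without CHX could enter it and genes high only with CHX could not, which can tilt it toward falls.

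The changes were small. Called falls ran from 16.3% (rps-13) to 37.2% (rps-18). In 21 of the 32 genes all 3 CHX libraries lay below all 3 no CHX libraries. They did so for 24.7% of all genes tested and for 427 of the 726 other genes in the small-subunit read range. In 0 of the 32 did they all lie above, against 27.7% of all genes. Of the 13 genes not called, with log2 fold changes from -0.20 to -0.019, the 95% intervals ran between -0.39 and 0.17. Apart from rps-21 and ubl-1, with lower bounds of -0.21 and -0.23, they leave room for falls like the smallest called (-0.26). None reached the largest called (-0.67). Of the 32, 0 passed a test against a 1.5-fold change (4.55% of all genes fell and 8.59% rose by it), although 4 had an estimate beyond 1.5-fold. All 14 calls made for genes other than rps-2, rps-9, rps-12, rps-13 and rps-16 held under every alternative but that test.

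**Figure D1:**
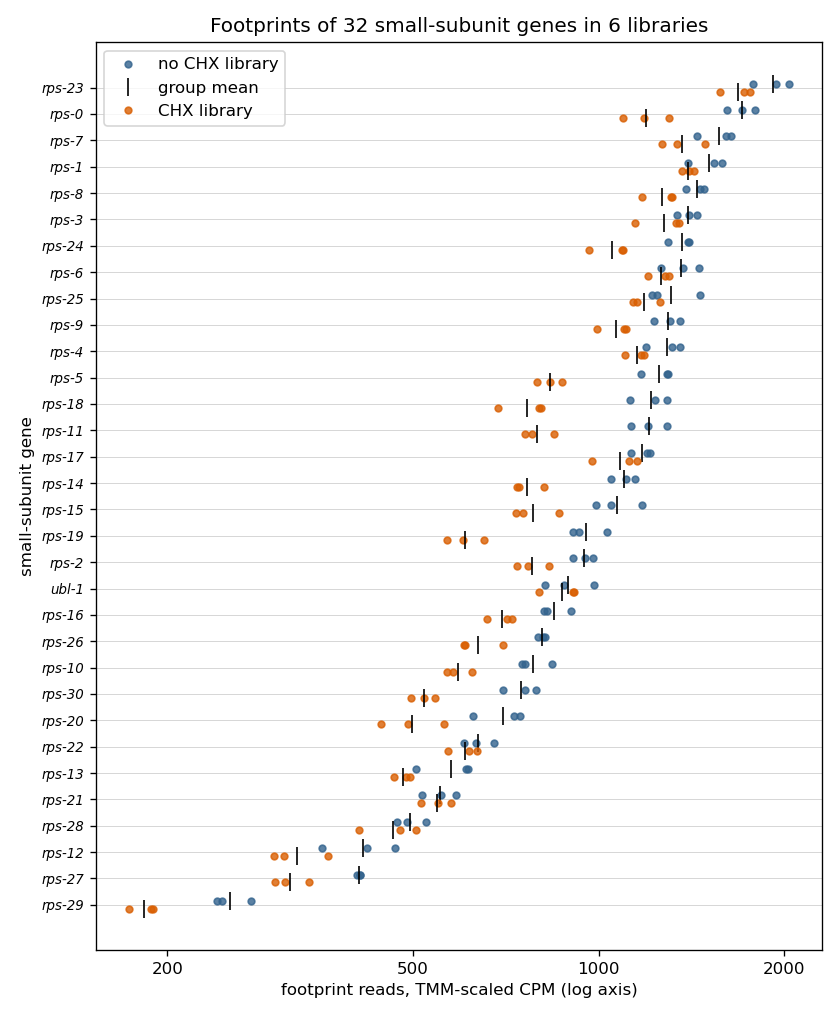
TMM-scaled CPM of each of the 32 small-subunit genes (log axis) in the 3 no CHX libraries (blue) and the 3 CHX libraries (orange), with bars at the group means and genes ordered by no CHX mean. The points of rps-18, rps-19, rps-11 and rps-5 are well apart between the groups, while those of rps-21 and ubl-1 overlap.

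The gene rps-18 (WBGene00004487, chromosome IV, 14825679 to 14826448, plus strand, WBcel235) encodes uS13 of the head, which contacts the tRNA in the P site. It had 1293, 1125 and 1233 CPM without CHX and 687, 806 and 799.8 CPM with it. All CHX libraries lay below all no CHX libraries, and the mean fell from 1217 ± 85.3 to 764 ± 67.2 CPM (SD over 3 libraries each; log2 fold change -0.67, SE 0.095, adjusted p = 2.4e-05 by edgeR), the lowest fold change of the 32. The gene rps-5 (WBGene00004474, chromosome IV, 11110102 to 11111045, minus strand) encodes uS7, next to the exit-site tRNA. It had 1296, 1172 and 1289.8 CPM without CHX and 794, 835 and 872 CPM with it. The groups were again apart, and the mean fell from 1253 ± 69.6 to 834 ± 39.0 CPM (log2 fold change -0.59, SE 0.088, adjusted p = 4.5e-05 by edgeR).

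The decoding centre itself is formed in part by uS12, uS19 and eS30. The gene of uS12, rps-23 (WBGene00004492, chromosome IV, 12390264 to 12391396, minus strand), had the most reads of the 32, with 1936, 1776 and 2036 CPM without CHX and 1571, 1763 and 1721 CPM with it. Its groups did not overlap, yet the change of -0.19 with a 95% interval of -0.37 to 0.0021 (adjusted p = 0.104 by edgeR) was not called. It was called without no CHX replicate 2 (-0.29, adjusted p = 0.024 by edgeR) and with upper-quartile factors (-0.22, adjusted p = 0.0492 by edgeR). The gene of uS19, rps-15, fell by 0.45 on the log2 scale (adjusted p = 0.00117 by edgeR), from 1071 ± 95.7 to 783 ± 68.7 CPM. The gene rps-16 of uS9, whose tail reaches the P-site tRNA, fell by 0.28 on the log2 scale (adjusted p = 0.0175 by edgeR), and its call ended without CHX replicate 1 (-0.24, adjusted p = 0.0602 by edgeR).

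At the entry of the mRNA channel sit uS3, uS4 and uS5. The gene of uS3, rps-3, was not called, at -0.13 with a 95% interval of -0.32 to 0.063 (adjusted p = 0.275 by edgeR). The genes of uS5, rps-2 (from 945 ± 34.8 to 779 ± 48.0 CPM), and uS4, rps-9 (from 1297 ± 65.1 to 1068 ± 64.3 CPM), both fell by 0.28 on the log2 scale (adjusted p = 0.0168 and 0.0165 by edgeR). Both calls ended without CHX replicate 1 (-0.24, adjusted p = 0.0584 by edgeR for rps-2 and -0.23, adjusted p = 0.0625 by edgeR for rps-9), and that of rps-2 also without CHX replicate 2 (-0.27, adjusted p = 0.0637 by edgeR). The gene rps-9 (WBGene00004478, chromosome II, 11125371 to 11126362, minus strand) is the 1 member on chromosome II, the chromosome that mIn1 rearranges, and starts 28.2 kb past the end of rpl-36.A. The mutated rpl-36.A itself fell by 0.50 on the log2 scale (adjusted p = 5.0e-04 by edgeR). Copies on the balancer and on the other chromosome are not separated by the counts.

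Of 3 platform genes, whose proteins lie at the mRNA exit, 2 fell. The gene of uS11, rps-14 (WBGene00004483, chromosome III, 7178984 to 7179606, minus strand), had 1146, 1047 and 1107 CPM without CHX and 738, 742 and 816 CPM with it. All CHX libraries were lower, and the mean fell from 1100.0 ± 50.2 to 765 ± 44.04 CPM (log2 fold change -0.52, SE 0.088, adjusted p = 1.5e-04 by edgeR). The gene of eS26, rps-26, fell from 809.7 ± 9.80 to 637 ± 54.1 CPM (-0.35, adjusted p = 0.00534 by edgeR). That of eS1, rps-1, had 1508 ± 98.3 and 1398 ± 33.7 CPM without and with CHX and was not called, at -0.11 with a 95% interval of -0.29 to 0.074 (adjusted p = 0.338 by edgeR). The gene of eS28, rps-28, a small head protein that also lies at the exit, was not called either, at -0.094 with a 95% interval of -0.30 to 0.12 (adjusted p = 0.477 by edgeR).

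The head proteins eS10 and uS10 are among those to which human cells attach ubiquitin when ribosomes collide. The gene rps-10 (WBGene00004479, chromosome I, 4583873 to 4584505, minus strand) had 841, 750.5 and 761 CPM without CHX and 568, 582 and 623 CPM with it. It fell from 784 ± 49.6 to 591 ± 28.7 CPM (log2 fold change -0.41, SE 0.090, adjusted p = 0.0015 by edgeR), with all CHX libraries below the no CHX ones. The gene rps-20 (WBGene00004489, chromosome I, 14468332 to 14469354, minus strand) had 729, 626 and 746 CPM without CHX and 491, 444 and 562 CPM with it. It fell from 701 ± 64.7 to 499 ± 59.5 CPM (log2 fold change -0.49, SE 0.104, adjusted p = 0.00114 by edgeR), also without overlap. Both estimates were near those of rps-29 (-0.46), the gene of the zinc-binding head protein uS14 and the member with the fewest reads, at 253 ± 17.8 and 183 ± 8.90 CPM without and with CHX.

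Other head genes included the second-lowest fold change. The gene rps-19 (WBGene00004488, chromosome I, 9621160 to 9625796, minus strand), whose human counterpart is mutated in Diamond-Blackfan anaemia, had 928, 908 and 1031 CPM without CHX and 568, 603 and 653 CPM with it. The groups were apart, and the mean fell from 956 ± 66.0 to 608 ± 43.0 CPM (log2 fold change -0.65, SE 0.093, adjusted p = 2.6e-05 by edgeR). The transcript the table gives for rps-19 spans 4637 bases and overlaps 2 genes on the opposite strand, nra-2 over 1211 bases and T05F1.2 over 2203. The log2 fold change of nra-2 was -0.23 (adjusted p = 0.0800 by edgeR) and that of T05F1.2 was 2.38 (adjusted p = 9.7e-10 by edgeR). They had 1944 and 811 reads over all 6 libraries against 8122 for rps-19. The overlaps are of genomic spans, introns included, and shared coding bases were not looked for. Where coding bases are shared, reads of such partners cannot be told apart without a stated strand setting. Of the other members, rps-4 overlaps a neighbour by 23 bases and rps-26 by 11. The gene of eS12, rps-12, fell by 0.35 on the log2 scale (adjusted p = 0.0171 by edgeR), although its groups overlapped, from 415 ± 55.6 to 324 ± 35.6 CPM. It was the 1 called gene with overlap, and it was no longer called on leaving out no CHX replicate 1 (-0.30, adjusted p = 0.0646 by edgeR), CHX replicate 1 (at -0.32, adjusted p = 0.061 by edgeR) or CHX replicate 2 (at -0.30, adjusted p = 0.0855 by edgeR). Genes of eS17 (rps-17, -0.12, adjusted p = 0.302 by edgeR) and of eS25 (rps-25, -0.15, adjusted p = 0.228 by edgeR), a protein that several viral mRNAs need for translation, were not called.

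A pair of members are made as fusions: rps-30 (eS30) and ubl-1 (eS31) are each translated with a ubiquitin-like domain in front of the ribosomal protein. The gene rps-30 (WBGene00004499, chromosome V, 7776576 to 7777236, plus strand) had 790.3, 699.6 and 759 CPM without CHX and 497, 521 and 543 CPM with it. It fell without overlap from 749.6 ± 46.0 to 521 ± 23.0 CPM (log2 fold change -0.53, SE 0.090, adjusted p = 1.7e-04 by edgeR). The gene ubl-1 (WBGene00006725, chromosome III, 3068306 to 3069209, plus strand) had 983, 818 and 879 CPM without CHX and 800.2, 911 and 909 CPM with it. Its groups overlapped, at 893 ± 83.5 and 873 ± 63.4 CPM without and with CHX, and the change was -0.032 with a 95% interval of -0.23 to 0.17 (adjusted p = 0.817 by edgeR). The intervals of the 2 changes, -0.72 to -0.34 for rps-30 and -0.23 to 0.17 for ubl-1, do not overlap, though the changes were not tested against each other.

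Among the remaining body proteins, rps-11 and rps-0 fell most. The gene of uS17, rps-11 (WBGene00004480, chromosome IV, 11602641 to 11603283, plus strand), had 1201, 1129 and 1289 CPM without CHX and 759.9, 781 and 846 CPM with it. It fell without overlap from 1206 ± 80.3 to 796 ± 44.8 CPM (log2 fold change -0.60, SE 0.090, adjusted p = 4.6e-05 by edgeR). The gene of uS2, rps-0 (WBGene00004469, chromosome III, 4752998 to 4754083, minus strand), whose human counterpart is mutated in isolated congenital asplenia, had 1705, 1618 and 1795 CPM without CHX and 1095, 1187 and 1299 CPM with it. It fell without overlap from 1706 ± 88.7 to 1193 ± 102 CPM (log2 fold change -0.52, SE 0.091, adjusted p = 2.2e-04 by edgeR). Smaller falls were found for rps-24 (-0.38, adjusted p = 0.00247 by edgeR), of eS24, and rps-27 (-0.37, adjusted p = 0.0037 by edgeR), of the zinc-binding eS27. The fall of rps-13 (-0.26, adjusted p = 0.0407 by edgeR), of uS15, was not called without any 1 library other than no CHX replicate 2 (-0.27 to -0.23), and not with DESeq2 (-0.29, adjusted p = 0.0816 by DESeq2).

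The gene of eS6, rps-6 (WBGene00004475, chromosome I, 13952161 to 13953194, plus strand), whose protein is phosphorylated by the S6 kinase of the TOR growth pathway, had 1452, 1264 and 1371 CPM without CHX and 1202, 1299 and 1283 CPM with it. The groups overlapped, and the change was -0.11 with a 95% interval of -0.30 to 0.075 (adjusted p = 0.335 by edgeR). The genes of eS7 (rps-7, -0.20, adjusted p = 0.096 by edgeR), eS8 (rps-8, -0.19, adjusted p = 0.0902 by edgeR) and eS4 (rps-4, -0.16, adjusted p = 0.153 by edgeR) were not called. Each was called without no CHX replicate 2 (-0.30, -0.27 and -0.27). With upper-quartile factors rps-7 (-0.23, adjusted p = 0.0469 by edgeR) and rps-8 (-0.22, adjusted p = 0.0394 by edgeR) were called too. The gene of uS8, rps-22 (WBGene00004491, chromosome III, 1950492 to 1951426, plus strand; rps-15A in RefSeq), had 678, 605 and 633 CPM without CHX and 569, 618 and 634 CPM with it. Its groups overlapped, at -0.072 with a 95% interval of -0.26 to 0.12 (adjusted p = 0.556 by edgeR). The gene of eS21, rps-21 (WBGene00004490, chromosome III, 7189142 to 7189631, minus strand), had 556, 518 and 588 CPM without CHX and 515, 576 and 549 CPM with it. This was the highest fold change of the 32, at -0.019 with a 95% interval of -0.21 to 0.17 (adjusted p = 0.895 by edgeR), and the groups overlapped.

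By place in the subunit, 9 of 14 head genes, 8 of 15 body genes and 2 of 3 platform genes fell, with median log2 fold changes of -0.38, -0.26 and -0.35. By spread over the domains of life, 12 of the 15 genes of universal (u) proteins fell, with a median of -0.45, and 7 of the 17 genes of e proteins, with a median of -0.19. The u genes not called were rps-3, rps-22 and rps-23. These are counts with no test of the difference between classes, and each class held both large and small changes, from -0.67 to -0.072 among u genes and from -0.65 to -0.019 among e genes. Across the 32 genes, log2 fold change and log2 mean CPM had a Pearson r of 0.17 and a Spearman rho of 0.15, given as a description, since all genes share the same 6 libraries. Of the members, 8 lie on chromosome I, 1 on II, 10 on III, 10 on IV, 3 on V and 0 on X. The 3 genes on chromosome V (rps-16, rps-27 and rps-30) fell. So did 5 of 8 on I, 5 of 10 on III and 5 of 10 on IV. Beside these counts by place, class and chromosome, 20% of all genes tested fell, and 52.1% of other genes in the small-subunit read range.

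**Figure D2:**
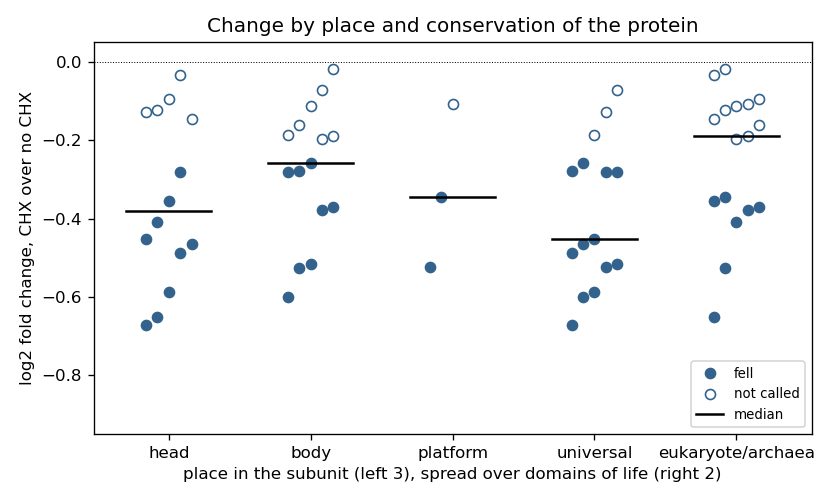
Log2 fold change of CHX over no CHX for each small-subunit gene, by place of its protein in the subunit and by whether the protein is universal or not (eukaryotes, in part archaea). Filled points fell at an adjusted p under 0.05, open points were not called, and lines are medians (-0.45 for universal and -0.19 for the rest).

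A second fit asked which genes changed by more or less than the small subunit as a whole, by setting each library's size to its summed reads on the 32 genes. On this scale 7 fell (8.53% of all genes tested fell) and 3 rose (36.4% of all genes rose), and 22 were not called. The order of the genes is nearly that of the first fit, since both rest on the same counts. The total is made of the 32 genes themselves, so a lower share of some must raise the share of others. The 7 were rps-18 (-0.38, adjusted p = 0.00216 by edgeR), rps-19 (-0.36, 0.00372), rps-11 (-0.30, 0.00808), rps-5 (-0.29, 0.00891), rps-30 (-0.23, 0.0391), rps-14 (-0.23, 0.0366) and rps-0 (-0.22, 0.0353). The 3 risers were rps-21 (0.28, adjusted p = 0.0185 by edgeR), ubl-1 (0.26, 0.0218) and rps-22 (0.22, 0.0455). In the first fit these 3 had log2 fold changes of -0.019, -0.032 and -0.072, none of them called. They rose only against a total that fell, and the median of all genes tested on this scale was 0.33. The calls of rps-18, rps-19, rps-11 and rps-5 held under each of the 8 alternatives tried for this fit. The other 6 did not, and without CHX replicate 2 there were 4 fallers and 0 risers. Without no CHX replicate 1, no CHX replicate 2 or CHX replicate 3 there were 4 and 1, without no CHX replicate 3 there were 6 and 2, and without CHX replicate 1 there were 5 and 2.

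The shares behind these values show the size of the shift. The gene rps-18 took 3.78%, 3.60% and 3.61% of the small-subunit reads without CHX and 2.70%, 2.95% and 2.81% with it. The gene rps-5 took 3.79%, 3.75% and 3.78% of the small-subunit reads without CHX and 3.13%, 3.05% and 3.07% with it. The replicates of a group lay close together, and both genes had a lower share in every CHX library than in any no CHX library. In the other direction, rps-21 took 1.62%, 1.66% and 1.72% of the small-subunit reads without CHX and 2.03%, 2.11% and 1.93% with it, and ubl-1 took 2.87%, 2.62% and 2.57% of the small-subunit reads without CHX and 3.15%, 3.33% and 3.20% with it. Both had a higher share in every CHX library. By this measure 11 members had all CHX shares below all no CHX shares and 12 had all of them above. Of all genes tested, most of which are no part of that total, 11.6% and 43.8% did so against it. The order of the 32 genes by CPM was otherwise kept, with a Spearman rho of at least 0.979 for any pair of libraries within a group and 0.932 to 0.965 for pairs across groups.

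**Figure D3:**
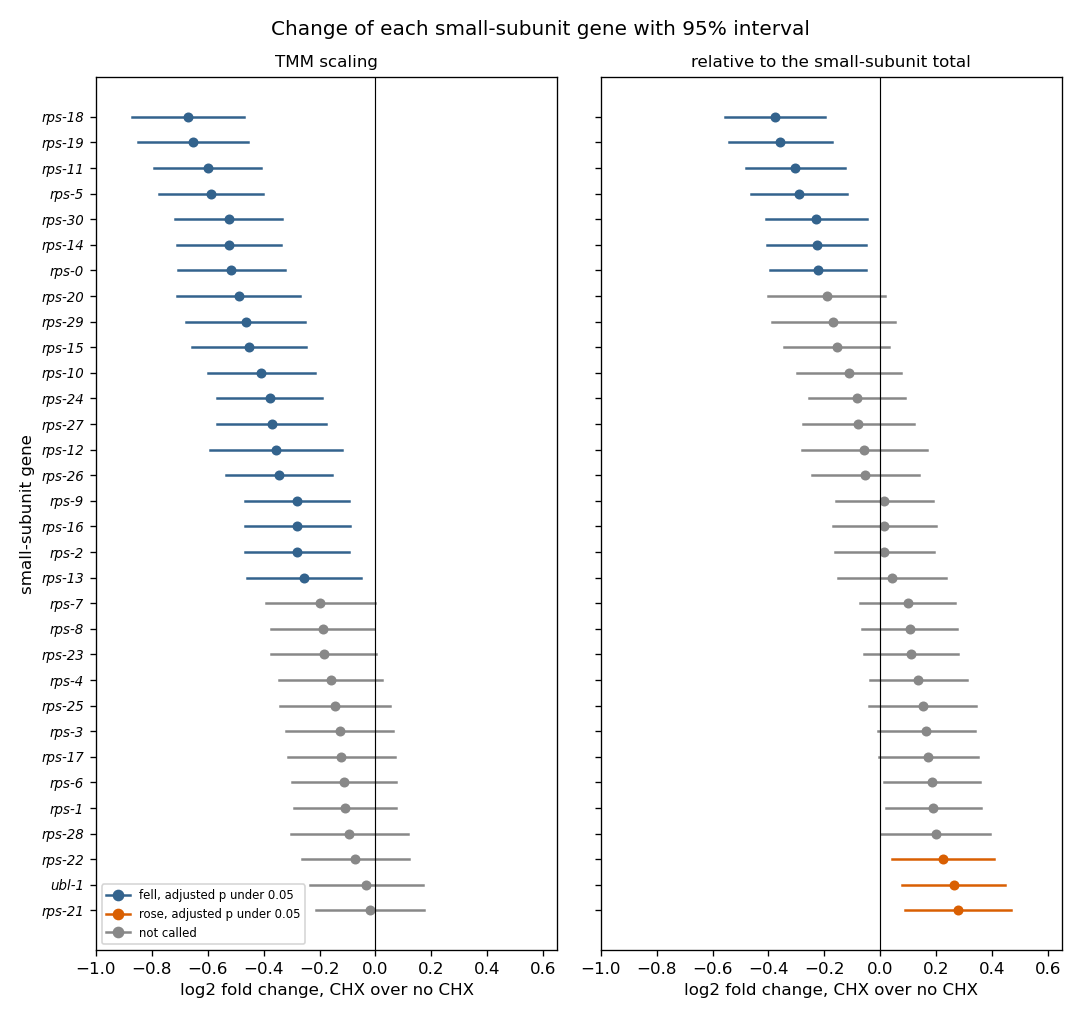
Log2 fold change of CHX over no CHX with its 95% interval for each of the 32 small-subunit genes, scaled with TMM factors (left) and to the summed small-subunit reads (right). All 32 points lie below 0 on the left, and on the right 7 genes (blue) fell and 3 (orange) rose.

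Most large-subunit genes fell too. Of 48 tested, with symbols that start with rpl- or rla-, 31 fell and none rose, with a median of -0.38. The shares that fell were 20% over all genes tested and 52.1% over the other genes in the small-subunit read range. The gene rpl-34 fell from 728 ± 28.99 to 419 ± 26.8 CPM (SD over 3 libraries each; log2 fold change -0.80, adjusted p = 2.5e-06 by edgeR), and rpl-25.2 fell by 0.79 on the log2 scale (adjusted p = 7.2e-06 by edgeR). Leaving out no CHX replicate 2 gave 41 falls, and leaving out CHX replicate 1 gave 26. Large-subunit genes took 4.88%, 4.496% and 4.91% of the reads in untreated libraries against 3.77%, 3.99% and 4.06% in treated ones. The ratio of small-subunit to large-subunit reads was 0.674, 0.681 and 0.672 in untreated libraries against 0.693, 0.688 and 0.704 in treated ones. The groups did not overlap, but the means stood in a ratio of only 1.03, at 0.676 ± 0.00428 and 0.695 ± 0.00805 (SD, n = 3 each).

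**Figure D4:**
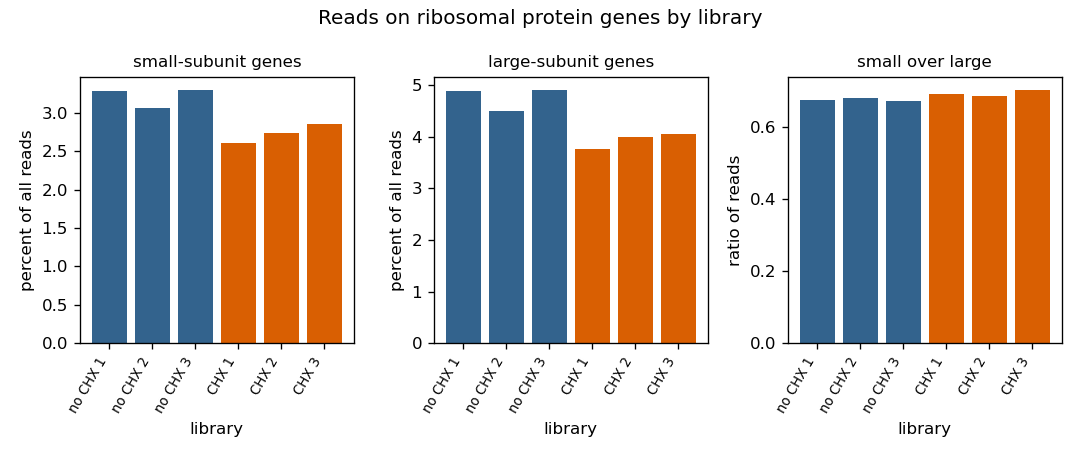
Percent of all reads on the 32 small-subunit genes (left) and on large-subunit genes (middle), and the ratio of the 2 read totals (right), 1 bar per library, with no CHX in blue and CHX in orange. Small-subunit shares were 3.06% to 3.30% without CHX and 2.61% to 2.86% with it, and the ratio ran from 0.672 to 0.704.

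Most of the listed genes whose products act on the small subunit fell as well. The gene rack-1, for the scaffold protein RACK1 on the head of the subunit, had 1433, 1248 and 1428 CPM without CHX and 1012, 1097 and 1168 CPM with it. The groups did not overlap, at a log2 fold change of -0.33 (adjusted p = 0.00884 by edgeR). Of initiation factors that bind this subunit, 16 of the 20 listed symbols were in the table, and 13 fell and none rose (median -0.43), where 20% of all genes tested fell. The lowest p-values were those of eif-3.C, a core subunit of the eIF3 scaffold (-0.75, adjusted p = 8.0e-06 by edgeR), and eif-2gamma, of the factor that carries initiator tRNA (-0.64, adjusted p = 9.1e-05 by edgeR). The genes eif-3.H, eif-3.I and eif-1.A were not called. Of 19 listed genes for assembly of the small subunit, 14 were in the table, and 10 fell and none rose (median -0.65), beside the same 20% of all genes tested. The fibrillarin gene fib-1, for the methyltransferase that modifies rRNA, and nol-56, for a partner in the same snoRNA particle, had the lowest p-values. The first fell from 949.7 ± 76.3 to 384 ± 30.04 CPM (log2 fold change -1.31, adjusted p = 1.5e-08 by edgeR) and the second from 708 ± 21.2 to 302 ± 12.6 CPM (-1.23, adjusted p = 1.2e-08 by edgeR). The genes riok-1 (-0.19), riok-2 (-0.17) and riok-3 (0.16), for RIO kinases, a family known for late steps of small-subunit maturation, and tsr-1 (-0.18) were not called. The median of each of these lists stands beside 0.034 over all genes tested. Of the other genes in the small-subunit read range 52.1% fell, with a median of -0.30, though that range was not matched to these lists.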

How the data were processed

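The authors deposited 1 table of raw counts of footprint reads per gene for all 6 libraries, with each line marked as coding sequence and placed on WBcel235, per the file headers. DESeq2 and WBcel235 are named in the submitters' processing notes. The sources used here do not give the aligner, the removal of rRNA, the strand setting or the handling of reads with several matches. The table's length column is another value deposited by the authors; it equals the genomic span, introns included, and was not used for levels, so the planned densities per codon were not computed. Members and lists were chosen with earlier results of these data known.

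Genes were filtered with filterByExpr (minimum count 10), which left 10632, scaled with TMM factors and fitted by group alone with the robust glmQLFit and glmQLFTest of edgeR 4.0.16 in R 4.3.3. A change was called at a p under 0.05 after Benjamini-Hochberg adjustment over all genes tested. The second fit set library size to the summed reads of the 32 genes. Both fits were tested on simulated data. Alternatives included DESeq2 1.42.0 and limma-voom (limma 3.58.1). Values in full were given for the 5 lowest and 3 highest fold changes, the genes called in the second fit, and rps-6, rps-10, rps-20 and rps-23 by role, beside the 2 lowest p-values of each list.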

Additional observations from a re-analysis of the deposited data

How the results depend on the processing

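Of the 19 falls, 14 were called under all 14 alternatives other than the test against a 1.5-fold change, which called 0. The count of falls was 14 (without CHX replicate 1) to 23 (without no CHX replicate 2) when 1 library was left out, 18 with DESeq2, 19 with limma-voom and 22 with upper-quartile factors, and 0 rose in any of them. Relative to the small-subunit total, 4 fell and 5 rose with all ribosomal protein reads as the total, 4 fell and 0 rose with the replicate block, and 4 to 6 fell and 0 to 2 rose without 1 library. With the replicate number as a block, 15 members fell in the TMM fit, and rps-2, rps-9, rps-13 and rps-16 were no longer called (adjusted p = 0.0529, 0.0542, 0.0904 and 0.0509 by edgeR). Libraries of the same number did not deviate together (correlations -0.104, -0.079 and -0.078, against 0.0086 to 0.074 for unlike numbers). No library correlated best with its own number, so no positive pairing by number was seen. Whether libraries of a number shared a preparation step was not tested. Signs turned only near 0, where no call stood. Without 1 library, the log2 fold change ranged from -0.12 to 0.024 for rps-21 and from -0.15 to 0.028 for ubl-1, and, relative to the total, from -0.0022 to 0.032 for rps-2, -0.0045 to 0.029 for rps-9, -0.12 to 0.013 for rps-12, -0.0041 to 0.067 for rps-13 and -0.032 to 0.041 for rps-16. The cause was not tested. Large-subunit falls numbered 26 to 41, initiation falls 10 to 13 and assembly falls 9 to 10 without 1 library. Densities per codon without TMM factors were not run. Changes under about 1.2-fold were mostly not called at this depth and number of libraries.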
